A study of Danio rerio with 6 samples.

Results

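The 54 genes described here encode SR proteins, hnRNPs, PTB proteins and the kinases that phosphorylate SR proteins. They were taken by symbol, as all genes of the deposited table of 21769 whose names begin with srsf and a digit, hnrnp, tra2a or tra2b, clk1 to clk4, srpk1 to srpk3 or ptbp1 to ptbp3. The family itself was chosen with earlier results of these data known. There were 16 SR protein genes, 2 Tra2 genes, 24 hnRNP genes, 5 PTB genes, 4 CLK genes and 3 SRPK genes. The 54 gene IDs carried 53 symbols, since *hnrnpa0l* named an ID on chromosome 14 (ENSDARG00000036161) and one on chromosome 20 (ENSDARG00000076380). The Ensembl name table calls the latter *gzf1*, so its place among the hnRNPs is uncertain. The same table calls *clk4b* CLK1.

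RNA-seq compared zebrafish embryos labelled *dhx38*-/- (3 libraries) with their siblings labelled wild type (3 libraries), in the AB background and collected at 36 hpf (hours after fertilization). *dhx38* codes for the ATPase Prp16, which remodels the spliceosome between its catalytic steps, and the labels do not state its mutation, the number of embryos in a library or whether libraries came from separate clutches. The p-values therefore measure the spread between these libraries, which may be technical. The source is called tail in one label and trunk in another.

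SR proteins bind exonic enhancers through RNA recognition motifs and recruit the splicing machinery through a tail rich in arginine and serine. Many hnRNPs and PTB proteins bind exonic or intronic silencers and favour exon skipping, so the balance between both families can set which exons are used. SRPK kinases phosphorylate SR proteins in the cytoplasm for import, and CLK kinases phosphorylate them in the nucleus. Many of these genes also regulate their own messages through alternative exons that expose the transcript to nonsense-mediated decay. Gene-level values, as used here, do not separate such transcripts from the coding ones.

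Values are normalized CPM, that is, read counts scaled to a common library size. One read was worth 0.0259 to 0.0546 normalized CPM, and the libraries held about 19.5 to 37.7 M reads, with replicate 3 of each group the shallower. The 54 genes lay between 2.46 and 1729 normalized CPM, and the lowest value, of *srsf7b* in mutant replicate 3, equalled about 45 reads. All 54 were tested, and 54 of 54 also had a mean of at least 1 normalized CPM. All 17 head and eye markers measured (for example *foxg1a* and *crybb1*) were above 0 in the 6 libraries, as were all 20 markers of tail and trunk, so the libraries held head transcripts despite the tissue label. Summed head and eye markers came to 879 to 1289 normalized CPM in siblings and 429 to 1070 in mutants, and summed tail and trunk markers to 33346 to 33905 and 26280 to 29867. The summed blood markers ranged from 2963 to 7583 and from 1982 to 3993. Nearly all of the tail and trunk sum lay in the muscle genes *actc1b*, *myhz1.1*, *mylpfa* and *acta1b*. Much of the head and eye sum lay in lens crystallin genes, so neither sum gives the amount of head or tail tissue. The targeted gene *dhx38* stood at 33.8, 33.8 and 27.3 normalized CPM in sibling replicates 1, 2 and 3 and at 57.2, 90.4 and 53.1 in mutant replicates 1, 2 and 3. Its log2 fold change of 1.03 (SE 0.22) missed the threshold (limma adjusted p = 0.0630; 0.00664 with the replicate block), and without a stated mutation the level does not check the genotype.

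The comparison asked which of these splicing regulators differed between *dhx38* mutants and siblings. With limma on log2(normalized CPM + 1), 0 of the 54 genes passed an adjusted p of 0.05, against 1.70% of all genes (1.41% higher and 0.285% lower in mutants). At an unadjusted p under 0.05 stood 13 of the 54 (24.1%), 8 higher and 5 lower, against 20.9% of all genes (10.2% higher and 10.7% lower) and 22.6% of genes with a mean of at least 1. The authors' deposited table of selected genes held 956 of the 21769 genes and 0 of the 54. Its criterion is not given in the sources used here. In bulk tissue, fewer cells that express a gene and less of its RNA per cell cannot be told apart.

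Replicate numbers were taken to pair the libraries, as same-number libraries of both groups deviated together from their group means. With the replicate number as a block, 6 of the 54 genes passed (11.1%), against 13.7% of all genes (6.85% higher and 6.87% lower), so the family was called about as often as the table as a whole. Those that rose with the block were *srsf11*, *srsf1b* and the kinase gene *srpk3*. Those that fell with it were *hnrnpua*, *hnrnpa1a* and the kinase gene *srpk1b*. With the block and a pseudocount of 0.1 in place of 1, 0 of the 54 passed, against 0.776% of all genes (0.717% higher and 0.0597% lower). In that setting 15 of the 54 stood at an unadjusted p under 0.05, against 5988 of all 21769 genes. With the block and a variance trend 14 passed, 8 higher and 6 lower, against 17.5% of all genes (8.85% higher and 8.60% lower). Without mutant replicate 1, and with no block, *srpk3*, *srsf11* and *hnrnpua* passed (7.95% of all genes did, 3.98% higher and 3.97% lower).

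**Figure D1:**
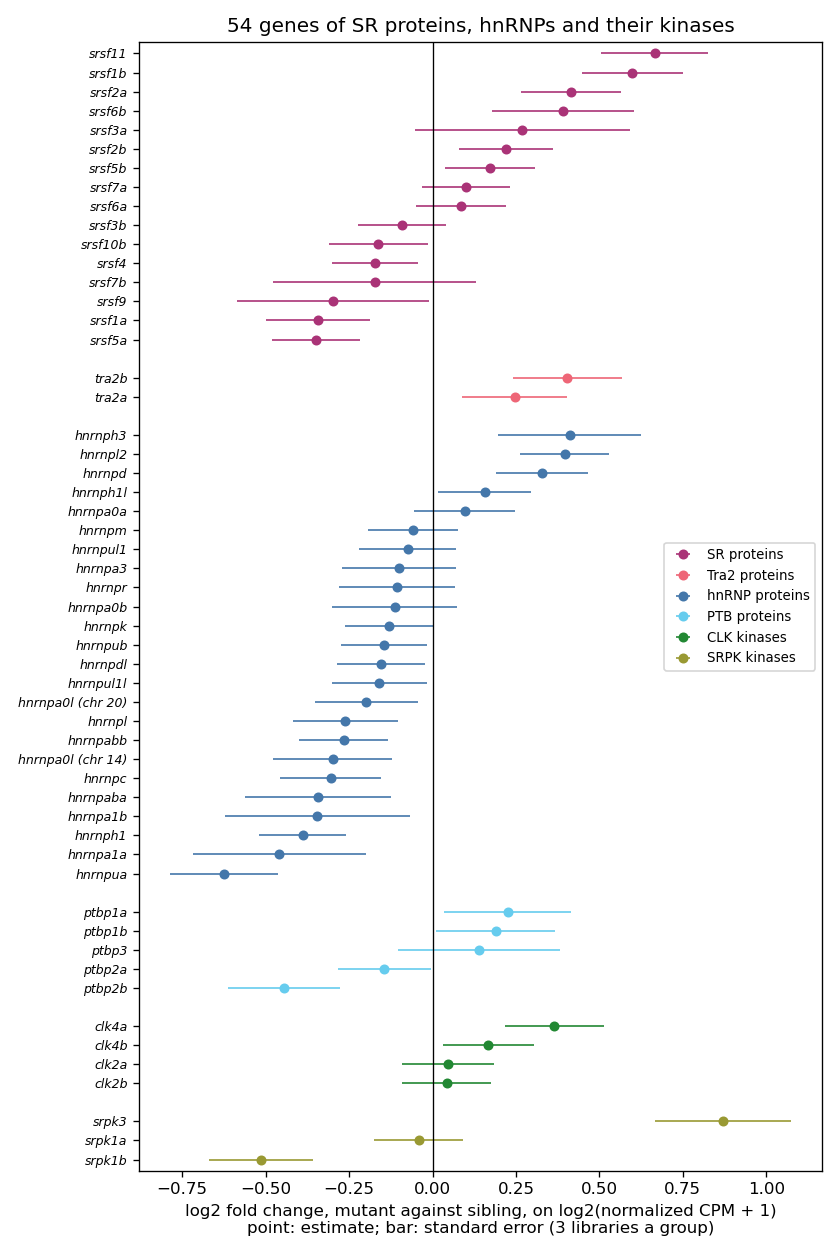
Log2 fold change (mutant against sibling, on log2 of normalized CPM + 1) of each of the 54 genes, grouped by role, with points for the limma estimate and bars for its standard error (3 libraries a group). Of the SR protein genes 9 lie above 0 and 7 below, while 19 of 24 hnRNP genes lie below 0, with *hnrnpua* the lowest at -0.62 and *srpk3* the highest of all at 0.87.

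An absolute log2 fold change of at least 0.5 was found in 5 of the 54, against 3277 of all 21769 genes. The lowest among the 370 called genes was 0.73, and 1 of the 54, *srpk3*, exceeded it. Called genes are picked partly by size, so that limit does not set the 54 apart. Standard errors of the 54 ran from 0.13 to 0.32 with a median of 0.15, compared with 0.17 over all genes. The groups did not overlap for 20 of the 54 (37.0%), 8 higher and 12 lower in mutants, against 27.1% of all genes (13.3% higher and 13.8% lower) and 28.7% of genes with a mean of at least 1. All 3 same-number pairs differed in one direction for 38 of the 54, 13 higher and 25 lower, against 25.6% higher and 27.0% lower over all genes. The median log2 fold change was -0.08, against -0.01 over all genes.

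Among the SR protein genes, *srsf11* had the highest log2 fold change. It encodes an SR-related factor that binds U2AF. Its level was 404, 436 and 411 normalized CPM in sibling replicates 1, 2 and 3 and 544, 742 and 719.8 in mutant replicates 1, 2 and 3. All mutant libraries lay above all siblings, with mutant replicate 1 the nearest. The log2 fold change was 0.67 (SE 0.16; limma adjusted p = 0.0789, and 0.0191 with the replicate block).

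*srsf1b* and *srsf1a* are the pair of zebrafish genes for SRSF1, also known as ASF/SF2, a founding member of the family. *srsf1b* stood at 113, 96.8 and 87.8 normalized CPM in siblings and at 148, 164 and 139 in mutants, in the order of replicates 1, 2 and 3. Every mutant library was above every sibling, and the log2 fold change was 0.60 (SE 0.15; limma adjusted p = 0.0870, and 0.0249 with the block). *srsf1a* went the other way, from 296, 278 and 254 in siblings to 244, 184 and 227 in mutants. Its groups did not overlap either, and it passed neither without nor with the block (log2 fold change -0.34, SE 0.16; limma adjusted p = 0.256 and 0.131).

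*srsf2a*, for the SR protein SC35, had sibling values of 384, 382 and 377 normalized CPM and mutant values of 431, 537 and 567. The siblings differed by little, mutant replicate 1 was the lowest mutant, and the groups did not overlap (log2 fold change 0.42, SE 0.15; limma adjusted p = 0.170, and 0.0792 with the block). Its partner *srsf2b* had 78.3, 73.1 and 69.8 in siblings and 76.2, 89.5 and 92.9 in mutants, where mutant replicate 1 fell among the siblings (log2 fold change 0.22, SE 0.14).

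*srsf5a*, of the SRp40 type, was at 482, 462 and 464 normalized CPM in siblings and at 377, 338 and 391 in mutants. All mutants were below all siblings (log2 fold change -0.35, SE 0.13; limma adjusted p = 0.184, and 0.101 with the block). *srsf5b* had 246, 244 and 256 in siblings against 253, 283 and 307 in mutants, and its groups overlapped at mutant replicate 1 (log2 fold change 0.17, SE 0.14). The third SR protein gene lower in all mutants was *srsf4*, at 217 to 223 in siblings and 183 to 207 in mutants (log2 fold change -0.17, SE 0.13).

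Replicate number moved some SR protein genes as much as genotype did. *srsf6b* had 169, 153 and 216 normalized CPM in siblings and 187, 225 and 302 in mutants, with replicate 3 the highest in both groups. Each mutant was above the sibling of its number, by 0.14, 0.55 and 0.48 on the log2 scale, but the groups overlapped (limma adjusted p = 0.336, and 0.0925 with the block). *srsf9* had 182, 166 and 93.2 in siblings and 137, 131 and 84.9 in mutants, with replicate 3 the lowest in both. Over the 54 genes, the difference of replicate 3 from replicates 1 and 2 exceeded the genotype difference in size in 24. The share over all genes was not computed, so whether this count is particular to the family was not tested. The remaining SR protein genes, *srsf3a*, *srsf3b*, *srsf6a*, *srsf7a*, *srsf7b* and *srsf10b*, had log2 fold changes from -0.17 for *srsf7b* to 0.27 for *srsf3a*, and their groups overlapped.

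The Tra2 proteins are SR-like activators that bind purine-rich exonic enhancers. *tra2b* stood at 52.8, 53.7 and 61.6 normalized CPM in siblings and at 63.5, 72.7 and 88.8 in mutants. The groups did not overlap, though mutant replicate 1 was close to sibling replicate 3 (log2 fold change 0.40, SE 0.16; limma adjusted p = 0.214, and 0.0719 with the block). *tra2a* had 128.5, 126 and 141 in siblings and 129.9, 169 and 174 in mutants, with mutant replicate 1 among the siblings (log2 fold change 0.25, SE 0.16).

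The hnRNP genes leaned the other way. Of 24, 19 (79.2%) had a negative log2 fold change, against 50.8% of all genes. In all 3 same-number pairs 17 were lower and 3 higher, against 27.0% lower and 25.6% higher over all genes. Their median log2 fold change was -0.15. Without the block 0 of 24 passed, against 1.70% of all genes by limma, and 4 (16.7%) had an unadjusted p under 0.05, against 20.9%. With the block 0 rose and 2 fell (8.33%), against 13.7% of all genes (6.85% higher and 6.87% lower). The calls thus did not set the hnRNP genes apart from the table. The lowest was *hnrnpua*, which encodes a form of hnRNP U, a large protein that binds RNA and the nuclear scaffold. It had 119, 125 and 129 normalized CPM in siblings and 94.9, 66.4 and 82.0 in mutants. All mutants were below all siblings (log2 fold change -0.62, SE 0.16; limma adjusted p = 0.0913, and 0.0284 with the block). Its partner *hnrnpub* had 512, 504 and 503 in siblings and 490.4, 443 and 443 in mutants, also without overlap, with a log2 fold change of -0.15 (SE 0.13).

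The hnRNP A/B genes encode abundant nuclear proteins, of which hnRNP A1 is the classic antagonist of SRSF1 in splice site choice. *hnrnpa1a* had 300.4, 277 and 479 normalized CPM in siblings and 228, 202 and 332 in mutants. Replicate 3 was the highest in both groups, so the groups overlapped, but each mutant was below the sibling of its number, by -0.39, -0.45 and -0.53 on the log2 scale. It fell with the block (log2 fold change -0.46; limma adjusted p = 0.0457, against 0.357 without it). That call was lost with the block and centring, an alternative chosen after seeing the data.

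*hnrnpa1b* had 392, 395 and 613 normalized CPM in siblings and 304, 285 and 533 in mutants. *hnrnpaba*, of the same A/B group, had 1361, 1165 and 1729 against 1039, 901 and 1433. Both were lower in each same-number pair and neither passed with the block (limma adjusted p = 0.110 and 0.103). *hnrnpabb* (689, 720.4 and 712 against 558, 562 and 647) and *hnrnpc* (118, 118 and 134 against 94.1, 90.4 and 116) had groups that did not overlap, with log2 fold changes of -0.27 (SE 0.13) and -0.31 (SE 0.15). The chromosome 14 ID of *hnrnpa0l* had 1103.5, 1093 and 1404 in siblings and 875, 884 and 1174 in mutants, with an overlap at replicate 3.

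*hnrnph1*, of the G-run binding hnRNP H/F proteins, stood at 18.2, 18.1 and 19.2 normalized CPM in siblings and at 15, 12.9 and 13.8 in mutants (log2 fold change -0.39, SE 0.13; limma adjusted p = 0.151, and 0.0774 with the block). All mutants were below all siblings. The related *hnrnph1l* had 236 to 243 in siblings and 233 to 286 in mutants (log2 fold change 0.16, SE 0.14), and *hnrnph3* had 8, 8.13 and 9.4 against 8.52, 11.45 and 15.95 (log2 fold change 0.41, SE 0.21), both with overlap.

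The groups did not overlap for 9 of the 24 hnRNP genes (37.5%, against 27.1% of all genes). Of these, 7 lay lower in all mutants and 2 higher, against 13.8% and 13.3% of all genes. The 2 higher were *hnrnpl2* and *hnrnpd*. *hnrnpl2*, which encodes a relative of hnRNP L, a protein that binds CA repeats, had 233, 223 and 223 normalized CPM in siblings and 269.6, 311 and 316 in mutants (log2 fold change 0.40, SE 0.13; limma adjusted p = 0.153, and 0.0803 with the block). *hnrnpd*, for the AU-rich element binding protein AUF1, had 56.4, 59.1 and 56.5 against 64.5, 73.8 and 79.4 (log2 fold change 0.33, SE 0.14; limma adjusted p = 0.225, and 0.127 with the block). The gene *hnrnpl* itself was at 469, 468 and 366 in siblings and 401, 346 and 337 in mutants, with an overlap at sibling replicate 3 (log2 fold change -0.26, SE 0.16). The remaining hnRNP genes, *hnrnpa0a*, *hnrnpa0b*, the chromosome 20 ID of *hnrnpa0l*, *hnrnpa3*, *hnrnpdl*, *hnrnpk*, *hnrnpm*, *hnrnpr*, *hnrnpul1* and *hnrnpul1l*, had log2 fold changes from -0.20 to 0.10. Of these, *hnrnpdl* and the chromosome 20 ID of *hnrnpa0l* lay lower in all mutants, and the others overlapped between groups.

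PTB proteins bind pyrimidine tracts as repressors, and in mammals PTBP1 is widespread while PTBP2 is the neural form. *ptbp2b* had 157, 138 and 131 normalized CPM in siblings and 121, 85.9 and 107 in mutants. All mutants were below all siblings (log2 fold change -0.45, SE 0.17; limma adjusted p = 0.184, and 0.0627 with the block). Of the 17 head and eye markers 15 had a negative log2 fold change as well (median -0.33), and their part in the level of *ptbp2b* was not tested. By limma 0 of these markers passed without the block, against 1.70% of all genes. At an unadjusted p under 0.05 5 were lower (29.4%, against 10.7% of all genes), and 6 passed as lower with the block (35.3%, against 6.87%). These 6 were the lens crystallin genes *cryaa*, *cryba2b*, *crybb1* and *crygn2*, with *foxg1a* and *rx2*. Other markers moved little or upward, such as *emx3* (log2 fold change -0.035), *otx2a* (0.156) and *rx1* (0.37). The marker groups did not overlap in 3 of 17 (17.6%, against 27.1% of all genes), 1 higher and 2 lower. *ptbp2a* was at 26.3 to 30.2 in siblings and 23.4 to 28.2 in mutants. *ptbp1a* had 106, 99.6 and 126 against 105, 124 and 162, and *ptbp1b* had 113, 112 and 134 against 116, 127 and 171. Both *ptbp1* genes overlapped between groups, with log2 fold changes of 0.22 (SE 0.19) and 0.19 (SE 0.18). *ptbp3* lay at 6.74 to 8.62 in siblings and 5.46 to 10.9 in mutants.

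The kinase genes gave the highest and one of the lowest log2 fold changes of the 54. *srpk3*, known in mammals as the muscle form of the SR protein kinases, stood at 21.2, 20.8 and 26.9 normalized CPM in siblings and at 31.9, 49.0 and 49.1 in mutants. All mutants were above all siblings, with mutant replicate 1 the nearest (log2 fold change 0.87, SE 0.20; limma adjusted p = 0.0758, and 0.0111 with the block). The 4 muscle genes among the trunk markers had negative log2 fold changes, from -0.85 for *acta1b* to -0.22 for *mylpfa*. Of these *actc1b*, a muscle actin gene, had 15402 to 16546 in siblings and 12756 to 13672 in mutants, and their part in the level of *srpk3* was not tested.

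*srpk1b*, one of a pair of genes for the widespread kinase SRPK1, had 54.6, 65.05 and 54.8 normalized CPM in siblings and 44.9, 41.8 and 34.9 in mutants. All mutants were below all siblings (log2 fold change -0.51, SE 0.16; limma adjusted p = 0.123, and 0.0411 with the block). *srpk1a* had 27.6, 28.02 and 31.6 in siblings and 29.3, 27.4 and 27.8 in mutants (log2 fold change -0.04, SE 0.13). *clk4a*, of the nuclear CLK kinases, was at 93.8, 98.5 and 78.1 in siblings and at 125, 116 and 107 in mutants. Its groups did not overlap (log2 fold change 0.36, SE 0.15; limma adjusted p = 0.215, and 0.0928 with the block). *clk4b*, *clk2a* and *clk2b* overlapped between groups, with log2 fold changes of 0.17, 0.05 and 0.04.

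**Figure D2:**
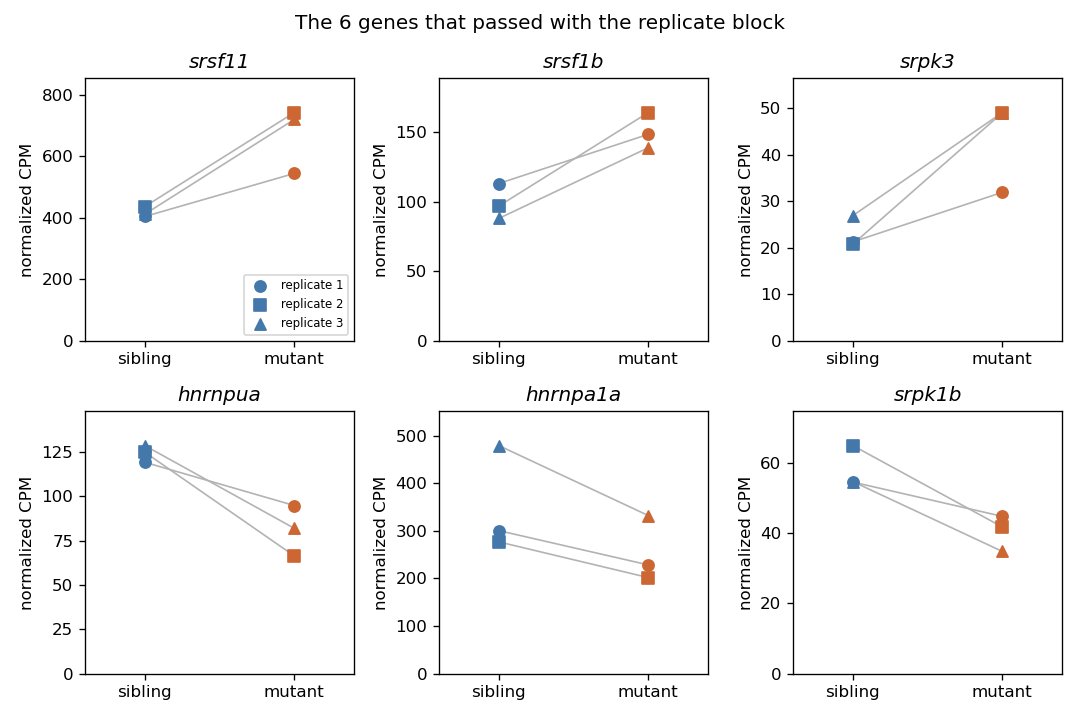
Normalized CPM per library of the 6 genes that passed with the replicate block, siblings in blue and mutants in orange, with a line joining libraries of the same replicate number and a marker shape for each number. The mutant lies above its sibling in all 3 pairs for *srsf11*, *srsf1b* and *srpk3* and below it for *hnrnpua*, *hnrnpa1a* and *srpk1b*, and replicate 3 of *hnrnpa1a* is high in both groups (479 and 332).

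Many of these genes carry paired a and b names, mostly for copies left by the genome duplication of teleosts (*tra2a* and *tra2b* are separate genes in mammals too), so each pair was also compared within the library. The log2 ratio of the a gene to the b gene was taken in each library, which removes any scaling shared by the library, and tested with limma over all 2104 such pairs in the table whose genes both had a mean of at least 1. This test was chosen after seeing the data. How reads shared by near-identical copies were counted is not given in the sources used here. Of the 16 pairs in the family 0 passed, against 0.333% of all pairs. At an unadjusted p under 0.05 stood 4 of the 16, against 19.2% of all pairs. With the block 1 of 16 passed, against 11.0% of all pairs. The ratio did not overlap between groups in 7 of the 16, against 25.7% of all pairs. The genes of a pair had log2 fold changes of opposite sign in 5 of the 16 (31.2%), against 40.5% of all pairs, so opposite signs were no more frequent here than in the table.

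The pair that passed with the block was *srsf1a* and *srsf1b*. Its log2 ratio was 1.38, 1.51 and 1.52 in sibling replicates 1, 2 and 3 and 0.71, 0.17 and 0.71 in the mutants. All mutants were below all siblings, with mutant replicate 2 the farthest. The difference was -0.94 (SE 0.20; limma adjusted p = 0.0966, and 0.0282 with the block).

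The *srsf5a* to *srsf5b* log2 ratio went from 0.97, 0.92 and 0.86 in siblings to 0.57, 0.26 and 0.35 in mutants (difference -0.52, SE 0.16; limma adjusted p = 0.160, and 0.0596 with the block). For *hnrnpua* to *hnrnpub* it went from -2.09, -2.004 and -1.96 to -2.36, -2.72 and -2.42 (difference -0.48, SE 0.17; limma adjusted p = 0.190, and 0.0844 with the block). The *srpk1a* to *srpk1b* ratio moved upward, from -0.96, -1.19 and -0.77 to -0.60, -0.59 and -0.32 (difference 0.47, SE 0.18; limma adjusted p = 0.221, and 0.0752 with the block). In each of these 3 pairs the groups did not overlap. Between *ptbp1a* and *ptbp1b* the difference was 0.03 (SE 0.15), between *clk2a* and *clk2b* 0.00 (SE 0.17), and between *hnrnpaba* and *hnrnpabb* -0.08 (SE 0.21).

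**Figure D3:**
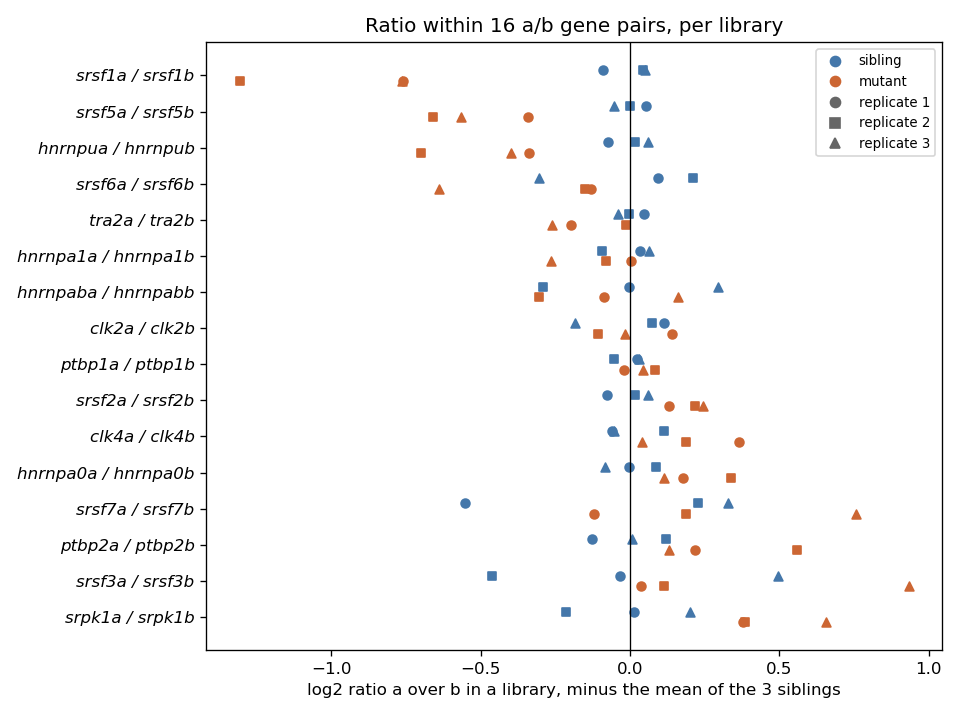
Log2 ratio of the a gene to the b gene in each library for 16 pairs, drawn relative to the mean of the 3 siblings (blue; mutants orange; marker shape gives the replicate number). Mutants lie left of all siblings for *srsf1a*/*srsf1b* (difference -0.94), *srsf5a*/*srsf5b* (-0.52) and *hnrnpua*/*hnrnpub* (-0.48) and right of them for *srpk1a*/*srpk1b* (0.47).

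Summed levels set both families side by side. The 16 SR protein genes summed to 3463, 3407 and 3283 normalized CPM in siblings and to 3417, 3765 and 3941 in mutants, with mutant replicate 1 among the siblings. The 24 hnRNP genes summed to 7554, 7260.1 and 8550.1 in siblings and to 6527, 6190.1 and 7698 in mutants, lower in each same-number pair, with an overlap at mutant replicate 3. The SR sum divided by the hnRNP sum was 0.458, 0.469 and 0.384 in siblings and 0.524, 0.608 and 0.512 in mutants, so every mutant lay above every sibling. Leaving out the gene with the highest value in each sum, *srsf11* and *hnrnpaba*, gave 0.494, 0.487 and 0.421 against 0.524, 0.572 and 0.514, again without overlap. These ratios are descriptions with no test, since they are scores over genes chosen with earlier results known.

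Other genes of splicing regulation were taken from 4 lists, of which 139 genes were measured and 4 rose over all genes tested with limma (2.88%, against 1.70% of all genes) and 0 fell. The 4 were *ccnl1a*, *srrm2*, *luc7l* and *rbm6*. *ccnl1a*, for a cyclin L that partners CDK11, had 80.6, 75.0 and 82.2 normalized CPM in siblings and 150.5, 215 and 209 in mutants (log2 fold change 1.25, SE 0.17; limma adjusted p = 0.02). *srrm2*, for a large SR-related protein of nuclear speckles, had 97.2, 105 and 113 against 211, 336 and 267 (log2 fold change 1.34, SE 0.19; limma adjusted p = 0.0213). In both genes the lowest mutant was well above the highest sibling.

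*luc7l*, for a protein associated with the U1 snRNP, had 256, 269.6 and 208 normalized CPM in siblings and 439, 665 and 513 in mutants (log2 fold change 1.12, SE 0.19; limma adjusted p = 0.0352). *rbm6*, for an RNA-binding protein, had 65.6, 67.3 and 75.3 against 109.5, 141 and 134 (log2 fold change 0.87, SE 0.15; limma adjusted p = 0.0367). Of these 4 genes, all 4 passed with the block, and 0 passed with the block and a pseudocount of 0.1. In that last setting 39 of the 139 stood at an unadjusted p under 0.05, against 5988 of all 21769 genes. Leaving out any sibling library or mutant replicate 2 left 0 of the 139 called, against 31 to 52 of all 21769 genes. Leaving out mutant replicate 3 left 1 of the 139, against 147 of all genes. Without mutant replicate 1, 15 of the 139 passed, 11 higher and 4 lower, against 7.95% of all genes.

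Most genes of each list did not pass. Of 37 SR-related protein genes 2 rose, 0 fell and 35 did not pass, against 1.41% higher and 0.285% lower over all genes. With the block 7 rose and 1 fell, against 6.85% and 6.87% of all genes. Their groups did not overlap in 22 (59.5%), 15 higher and 7 lower in mutants, against 27.1% of all genes, and the median log2 fold change was 0.13. They summed to 3718, 3815 and 3949 normalized CPM in siblings and 4350.1, 5027 and 4746 in mutants.

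The list of other kinases, phosphatases and importers that act on SR proteins had 25 genes and also held the cyclin genes *ccnl1a* and *ccnl1b*. In it 1 rose, the cyclin gene *ccnl1a*, 0 fell and 24 did not pass, against 1.41% higher and 0.285% lower over all genes. With the block 6 rose, both cyclin genes among them, and 0 fell, against 6.85% and 6.87% of all genes. The median log2 fold change was 0.08. Their sum was 2274, 2205 and 2077 normalized CPM in siblings and 2678, 3025 and 2642 in mutants. Both this sum and the SR-related sum were higher in every mutant than in every sibling.

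Of 27 genes for hnRNP-like proteins that carry other names 0 passed with limma, against 1.70% of all genes, and 1 higher and 3 lower had an unadjusted p under 0.05 (14.8%, against 20.9%). With the block 1 rose and 3 fell (14.8%, against 13.7% of all genes), so the calls were near or below the background. A negative log2 fold change was found in 18 of 27 (66.7%, against 50.8% of all genes; median -0.10). Their sum was lower in every mutant than in every sibling, at 12193, 12516 and 13558 normalized CPM in siblings and 10337, 10193 and 11248 in mutants. Most of that difference lay in *cirbpa* (mean of 2237 in siblings and 1438 in mutants) and *cirbpb* (2700 and 1550). Without both genes the sums of the groups overlapped, so the lower sum in every mutant rested on them. Of 50 genes for sequence-specific regulators 1 rose, 0 fell and 49 did not pass, against 1.70% of all genes called. With the block 3 rose and 4 fell (14.0%, against 13.7% of all genes), and the median log2 fold change was -0.03. Their sum was 6511, 6531 and 6739 normalized CPM in siblings and 6108, 5738 and 6243 in mutants, lower in every mutant. Without *khdrbs1a*, the gene with the highest value in that sum, the groups overlapped, at 4769, 4689 and 4761 against 4705, 4499 and 4556.

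**Figure D4:**
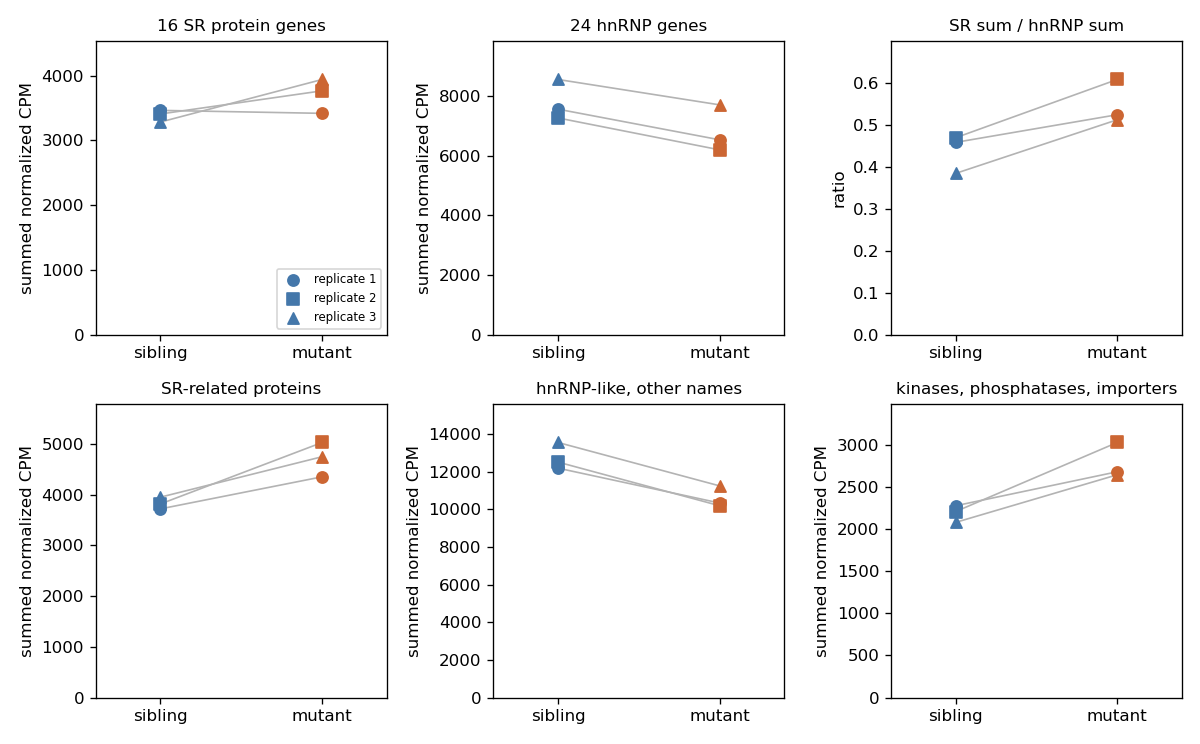
Summed normalized CPM per library of the SR protein genes, the hnRNP genes and 3 of the 4 other lists (the sequence-specific regulators are given in the text), and the SR sum divided by the hnRNP sum, siblings in blue and mutants in orange, with lines joining the same replicate number. The ratio is 0.384 to 0.469 in siblings and 0.512 to 0.608 in mutants. The hnRNP-like sum is lower in all mutants, with most of the difference in *cirbpa* and *cirbpb*, and without these genes the groups overlap. The sums of SR-related proteins and of kinases, phosphatases and importers (with the cyclin genes *ccnl1a* and *ccnl1b*) are higher in all mutants.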

How the data were processed

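Values were the authors' normalized CPM, a normalized signal per gene with 2 decimals, named so per the file headers. Per the submitters' processing notes, reads were handled with STAR, featureCounts, fastp and edgeR (GRCz11 build; roles and order not listed). Normalization factors, strand setting, gene filter and versions: not given in the sources used here. Overlapping genes and antisense partners may therefore share reads. Groups and replicate numbers came from the sample titles. The 54 genes and all lists were chosen with earlier results of these data known.

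All 21769 genes were tested without a filter as log2(value + 1), mutant against sibling, using lmFit and eBayes of limma 3.58.1 (R 4.3.3, default settings, two-sided), adjusted by Benjamini-Hochberg, with a threshold of 0.05. Only the fit without the block was run on simulated data, which held no replicate effect. Fold changes on this scale understate those of low genes. Over 18506 genes, same-number libraries deviated together from their groups' means (r of 0.46, 0.45 and 0.59 for numbers 1, 2 and 3, above the bound of 0.1), so the numbers were taken to pair the libraries and the replicate block was fitted as an alternative. Among libraries of different numbers, sibling replicate 2 and mutant replicate 1 also exceeded that bound (r of 0.15), and the other such pairs were negative. Deviations from a group mean cancel within the group, so positive same-number values push the others negative. The negative signs therefore add nothing on the pairing. What a number marks is not stated, and replicate 3 was also the shallower.

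Reads per library were estimated from the spacing of low values, within a tolerance of 0.0055. No count test was run, since rounding to 2 decimals blurs the value of 1 read in 4 of the 6 libraries. Genes described in full were those at an unadjusted p under 0.05 or with groups that did not overlap and an absolute log2 fold change of at least 0.5, with their paralogs; a few further members were given in full by choice, with values known. Of the other lists, genes passing the threshold were named, at most 6 a direction, and further genes only for their part in a sum. Alternatives were the block, a pseudocount of 0.1, a variance trend, centring, leaving out libraries, filtering low values, and stricter limits on p or fold change.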

Additional observations from a re-analysis of the deposited data

How the results depend on the processing

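The 0 genes of the family called became 6 with the replicate block, 14 when a variance trend was added to it and 5 when centring was added (chosen after seeing the data), and leaving out single libraries gave 0 to 3, the 3 without mutant replicate 1. Stricter limits on p or fold change narrow the same fit, so the count of 0 could only stay there (13 unadjusted). It also stayed at 0 with low values filtered out or centring (13 unadjusted in each) and with a variance trend (15 unadjusted). The same held with a pseudocount of 0.1 (10 unadjusted), that pseudocount with the block (15 unadjusted), and in replicates 2 and 3 only (9 unadjusted). Among all genes tested the unadjusted counts were 4546 with stricter limits, 4144 with low values filtered out and 4501 with centring. A variance trend gave 4614 and a pseudocount of 0.1 gave 4227. That pseudocount with the block gave 5988, and replicates 2 and 3 only gave 4111. Over all genes the 370 calls became 41 at a threshold of 0.01, 2986 with the block (1491 higher, 1495 lower), 205 with a pseudocount of 0.1, 169 with both, 3800 with the block and a trend, 2949 with the block and centring (1593 higher, 1356 lower), and 31 to 1731 without single libraries. The 4 calls of the other splicing lists became 0 at that threshold (38 unadjusted), then 25, 2, 0, 40 and 26 in the same order of settings, 2 in replicates 2 and 3 only, and 0 to 15 without single libraries. Centring shifted values by 0.02 on the log2 scale.

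The family's median log2 fold change was -0.076 to -0.02 without single libraries. Of the a/b pairs 1 was called with the replicate block. *ptbp3* reversed in replicates 2 and 3 only (-0.068). Without single libraries 8 genes changed sign. Their ranges were -0.072 to 0.499 for *srsf3a*, -0.389 to 0.134 for *srsf7b*, -0.22 to 0.023 for *hnrnpr* and -0.017 to 0.424 for *ptbp3*. They were -0.256 to 0.048 for *hnrnpa0b*, -0.201 to 0.058 for *hnrnpa3*, -0.038 to 0.099 for *clk2a* and -0.077 to 0.018 for *srpk1a*. The other 46 kept their sign in each of these settings. Why calls changed, the cause, was not tested. The 4 planned count tests were not run.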
